A study of Mus musculus with 16 samples.

Results

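The pyramidal neurons of hippocampal field CA1 were described in single-nucleus RNA data from 16 hippocampal libraries of female mice aged 9 months. A nucleus counted as CA1 when it held at least 3 UMIs (unique molecular identifiers, each standing for 1 captured transcript) of Fibcd1, Gm10754, Gm2115, 4921539H07Rik and 1700007F19Rik together. It also had to hold at least 1 UMI of Slc17a7, the vesicular glutamate transporter of excitatory neurons. At most 1 UMI was allowed for each of Gad1 plus Gad2 (inhibitory neurons), Prox1 (granule neurons of the dentate gyrus, DG) and Iyd plus Rerg (field CA3). The members were thus chosen by their measured UMIs of these 11 genes, whose own levels are no finding. Of 147873 nuclei, 15027 met the rule (10.2%), with 604 to 1253 in each library.

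Genotype was the variable. The labels give Ch25h as +/+ or -/- and Tau as + or -, and all 4 combinations were sampled with 4 libraries apiece. They name neither the tau line nor the promoter or cells that drive it, and give no strain, allele design or batch. Replicates are called 1 to 4 by accession order, a name only. The labels do not say that each library is a separate animal, so p-values measure the spread between these libraries. The study's title links innate immune activation through Ch25h to tau, and the design asks what tau and what Ch25h loss changed.

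CA1 pyramidal neurons are the main output cells of the hippocampus. They receive the Schaffer collaterals of CA3 and direct entorhinal input, and project to the subiculum and entorhinal cortex. In human Alzheimer's disease CA1 is among the hippocampal fields most marked by tau tangles and cell loss. Ch25h makes 25-hydroxycholesterol, an oxysterol that holds back the processing of SREBP2, the transcription factor that drives the genes of cholesterol synthesis and uptake. Interferon raises Ch25h in macrophages and microglia.

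By library the median CA1 nucleus carried 8919 to 12987 UMIs from 3302.5 to 4211.5 genes, and their UMIs summed to 7.61206e+06 to 1.4468e+07 per library. Across the 16 libraries 25 member barcodes occurred in more than 1 library, at most 2 for any of the 120 pairs of libraries. Libraries were split by sign along the main component of nuclei other than CA1, computed on deviations from group means. Such centering by itself places libraries of every group at both signs. Positive values (first side) were those of replicates 1 and 2 in each group, and negative values (second side) those of replicates 3 and 4. This component carried 26.3% of the variance within groups. A component of CA1 profiles, also on deviations from group means, carried 27.5% and split the libraries alike. Dnaja2, a co-chaperone, read 146 to 172 CPM (UMI counts scaled by the library's total UMIs of CA1 nuclei, in parts per 1e+06) on the first side and 28.5 to 36.7 on the second. Each group holds 2 libraries of each side.

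Among the members, 2 libraries of 1 group stood apart. In Ch25h-/- Tau- replicates 3 and 4, Dcn, a matrix proteoglycan typical of ventral CA1, read 46.5 and 47.1 CPM, against 12.4 to 33.4 in the other 14, and 24.3% and 25% of their CA1 nuclei had a Dcn UMI against 8.33 to 15.3%. Wfs1, typical of dorsal CA1, read 17.8 and 9.35 CPM there and 16.8 to 31.8 in the others, so that only replicate 4 lay outside. CA1 nuclei were 7.25 and 7.42% of all nuclei in them and 7.55 to 13.2% in the others, with Ch25h+/+ Tau- replicate 3 the nearest. These 2 libraries also held 754 and 724 DG nuclei, against 280 to 538 in the others. Both are replicates of 1 group, so their makeup and the values of that group cannot be told apart, and results are given without them where a call changed.

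The targeted gene was read first. In CA1 nuclei the 8 libraries labelled Ch25h-/- held 30 Ch25h UMIs, with at least 2 in each, and the 8 libraries labelled Ch25h+/+ held 5, in 3 libraries. The ratio of CPM was 5.85 (95% counting interval 2.25 to 19.3). Ch25h (19:34473778-34475164, GRCm38) therefore went against the labels in these nuclei. Gm26902, a noncoding gene that overlaps it on the other strand, held 11 and 16 UMIs, a ratio of 0.67 (0.281 to 1.54). The intervals cover counting error only, and "labelled Ch25h-/-" is meant wherever a direction of Ch25h loss is given.

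The label CA1 was checked against markers that the rule did not use. These are descriptions with no test, because the rule selects for such genes. Wfs1, an endoplasmic reticulum protein, averaged 22.3 CPM in CA1 nuclei, 2.92 in CA3 nuclei, 5.19 in DG nuclei and 12.3 in all other nuclei. Man1a, a Golgi mannosidase, averaged 446.7 CPM in CA1 nuclei and 181 in CA3 nuclei. Mpped1 averaged 147.5 against 52.8 CPM, and the transcription factor Pou3f1 18.1 against 6.88 in all other nuclei. Calb1, a calcium buffer of superficial CA1 and of granule neurons, averaged 35.9 CPM in CA1 nuclei and 132.8 in DG nuclei. Prox1 averaged 1.47 CPM against 414 in DG nuclei, Rerg 8.24 against 290.5 in CA3 nuclei, and Gad1 1.12 against 55.0 in all other nuclei. Prox1, Rerg and Gad1 were limited by the rule. Glial markers were not, and they varied. Csf1r of microglia averaged 1.78 CPM in CA1 nuclei against 18.1 in all other nuclei, and Slc1a3 of astrocytes 13.5 against 187.5. P2ry12, listed for microglia, averaged 67.4 CPM against 88.1, with a UMI in a mean of 47.6% of CA1 nuclei and 28.8% of the others. Tnr, listed for oligodendrocyte precursors, was higher in CA1 nuclei, at 547.5 CPM against 486.4.

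**Figure D1:**
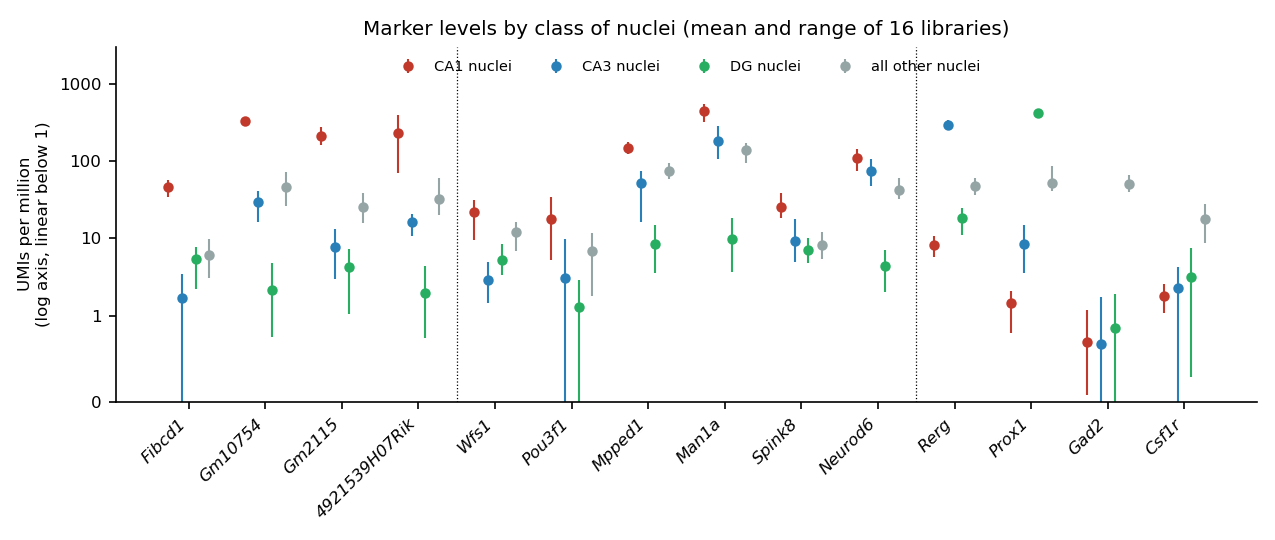
Marker genes (x axis) by class of nuclei, in CPM (y axis, log scale above 1). Points are means of 16 libraries and bars run from the lowest to the highest library. Left of the first dotted line are 4 genes of the rule, then 6 CA1 genes that the rule did not use, then genes of other classes. Wfs1 stands at 22.3 in CA1 nuclei and 2.92 in CA3 nuclei.

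At the threshold the members graded into the nuclei left out. The 1902 nuclei with exactly 3 UMIs of the 5 genes read 255 CPM of Man1a and 128 of Mpped1, and the 2547 nuclei with exactly 2, just outside, read 220 and 122. Over all members these genes read 446 and 147 CPM. Neurod6, Pou3f1 and Spink8 also read lower just outside than just inside. Wfs1 did not, at 17.5 CPM just inside, 19.9 just outside and 22.3 over all members. Tshz2, which is high in subicular and retrosplenial neurons, ran opposite to Man1a, with 221 CPM over all members, 429 just inside and 555 just outside. Trps1, listed as a marker of CA3, likewise read 188, 345 and 343 CPM, so a CA3 marker was also higher at the threshold. It averaged 1181 CPM in CA3 nuclei and 192.5 in CA1 nuclei. C1ql2, a granule neuron gene, stayed between 1.34 and 2.45 CPM in all of these nuclei. The number of nuclei marked for high doublet scores was set in advance, at 0.8% per 1000 nuclei of a library. Nuclei so marked were 7.47% of all nuclei and 1455 of the members (9.68%), and neither percentage is a measured rate of doublets.

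Few genes differed between Tau+ and Tau- CA1 nuclei beyond the spread between libraries. Over both Ch25h genotypes 5 of 16295 genes tested passed an adjusted p of 0.05 (0.0307%), 4 higher (0.0245%) and 1 lower (0.00614%) in Tau+. The higher genes were Prnp and the noncoding RNAs Gm43049, Gm32754 and 4930590L14Rik, and the lower gene was Unc5c. Of these 5, 4 lie together on chromosome 3: Gm43049 at 140692038-140760704, Gm32754 at 140904998-140917459, 4930590L14Rik at 140951876-140953247 and Unc5c at 141465216-141834924 (GRCm38). The noncoding RNAs among them passed the filter on low counts only through Tau+, where they are high, so their calls were favoured in advance. Effects of tau and of any other DNA that differs between Tau+ and Tau- mice cannot be told apart in this design. At an unadjusted p under 0.05 there were 1496 genes (9.18%), of which 673 were higher (4.13%) and 823 lower (5.05%).

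Prnp, which encodes the prion protein (2:131909928-131938429), read 144, 128, 132 and 155 CPM in Ch25h+/+ Tau+ and 89.5, 65.7, 105 and 94.5 in Ch25h+/+ Tau-. With Ch25h-/- labels it read 139, 122, 148 and 171 in Tau+ and 82.0, 83.5, 84.9 and 99.7 in Tau-. All 8 Tau+ libraries were above all 8 Tau- libraries. UMIs assigned to Prnp rose by 0.69 ± 0.089 on the log2 scale (SE, n = 8 and 8, adjusted p = 0.00152). Within Ch25h+/+ and Ch25h-/- it was 0.65 ± 0.126 (adjusted p = 0.22) and 0.73 ± 0.126 (adjusted p = 0.0531), which did not pass. In barcodes under 100 UMIs, which hold free RNA, Prnp read 401 CPM, and the part of free RNA in the difference was not tested. The labels do not say how tau is expressed in Tau+ mice, and whether transcripts of a transgene were counted as Prnp was not tested. The value is therefore one of UMIs assigned to Prnp, and a rise of the mouse gene itself cannot be told apart from it.

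Unc5c, a netrin receptor that guides axons, was lower in every Tau+ library. The 4 Ch25h+/+ Tau+ libraries read 527, 400, 519 and 468 CPM, and the 4 Ch25h+/+ Tau- libraries 616, 749, 738 and 676. The Ch25h-/- libraries gave 428, 410, 475 and 469 for Tau+ and 698, 714, 847 and 768 for Tau-. The ranges were apart in both genotypes, as they were for 2.65% of all genes in Ch25h+/+ and 4.74% in Ch25h-/-. Unc5c fell by 0.65 ± 0.0654 on the log2 scale over both genotypes (adjusted p = 5.4e-05). In Ch25h-/- alone the fall was 0.77 ± 0.0926 (adjusted p = 0.000821), where the first side of the library split alone gave -0.75 and did not pass (adjusted p = 0.215), and in Ch25h+/+ alone the value was -0.54 ± 0.0924 (adjusted p = 0.0758). The difference between the genotypes was -0.23 ± 0.13 and did not pass (adjusted p = 0.989).

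The 3 noncoding RNAs were almost absent from Tau- libraries. Gm43049 read 91.3 to 117 CPM in the 8 Tau+ libraries and 0 to 0.184 in the 8 Tau- libraries, from 9294 against 4 UMIs. The ratio was 2220 (95% counting interval 866 to 8140). Gm32754 had 1020 UMIs against 2, a ratio of 487 (134 to 4020). 4930590L14Rik had 280 UMIs against 0, at least 89.1-fold higher against a floor of 3 UMIs over the group. All 3 were called within each genotype as well, where they were the 3 genes called in Ch25h+/+ (0.0184%) and 3 of the 4 in Ch25h-/- (0.0245%). They passed the filter on low counts only through Tau+, where they are high. Their calls were thus favoured in advance, and the UMI counts are the description to read. Mapt itself, the mouse tau gene, read 362 ± 30.4 CPM (SD, n = 8) in Tau+ and 333 ± 28.1 in Tau-, and did not pass (adjusted p = 0.518).

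**Figure D2:**
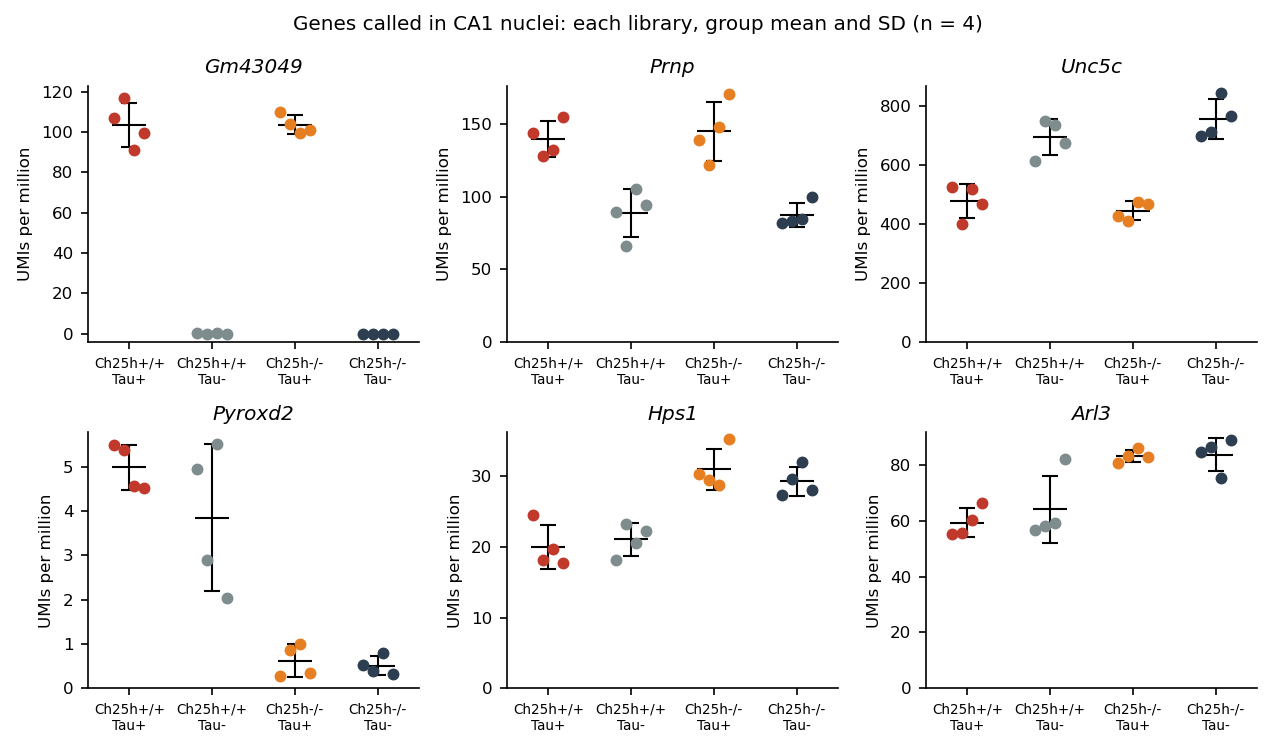
CPM (y axes) in CA1 nuclei of each of 16 libraries, by group (x axes), for Gm43049, Prnp, Unc5c, Pyroxd2, Hps1 and Arl3. Points are libraries and bars are the group mean ± SD (n = 4). Gm43049, Prnp and Unc5c separate Tau+ from Tau-, and Pyroxd2 and Hps1 separate the Ch25h labels.

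With the split of libraries as a block, 40 genes passed for tau over both genotypes (0.245%), among them all 5 above, and 17 of the 40 were higher. The split was drawn from counts of the same libraries, and a block on it takes up part of their spread. Calls that need this block therefore rest on a split chosen from the data. DESeq2 called 54. The following genes passed with the block and are given as such. Bmpr1b, a bone morphogenetic protein receptor whose gene (3:141837136-142169425) adjoins Unc5c, read 9.28 to 16.6 CPM in Tau+ and 19.1 to 37.3 in Tau-, a log2 value of -0.94 ± 0.148 (adjusted p = 0.0263). Snap25, a core protein of synaptic vesicle fusion, read 779 ± 41.8 and 950 ± 103 CPM, a log2 value of -0.28 ± 0.0498 (adjusted p = 0.0345, and 0.164 with no block). Lrp4, an agrin receptor at synapses, read 4.61 to 6.46 CPM in Tau+ and 2.38 to 4.0 in Tau-, with no overlap, 0.64 ± 0.116 (adjusted p = 0.0345). Over all genes the 8 Tau+ and 8 Tau- libraries did not overlap for 20 of 16295 (0.123%).

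Genes of cholesterol synthesis and uptake read lower in Tau+ CA1 nuclei as a group. Of 23 listed and tested, 22 had a log2 value below 0, where 50.1% of all genes did, and 17 were lower at an unadjusted p under 0.05, where 5.05% of all genes were. Their median was -0.33, against -0.00039 over all genes. No member passed an adjusted p of 0.05 without the block. The lowest was 0.0672, for Hmgcs1. The pattern was known from earlier results of these data when the list was chosen, so the counts describe these libraries only.

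The members span the pathway. Hmgcs1, which makes HMG-CoA, read 11.0, 17.6, 17.2 and 15.5 CPM in Ch25h+/+ Tau+ and 23.1, 19.3, 20.8 and 21.5 in Ch25h+/+ Tau-. Its Ch25h-/- libraries read 19, 13.7, 14.5 and 14.9 in Tau+ and 22.2, 22.3, 23.9 and 27.8 in Tau-. The highest Tau+ library thus lay just below the lowest Tau- library. Its log2 value was -0.54 ± 0.0992. Cyp51, lanosterol demethylase, read 29.6 to 36.2 CPM in Tau+ and 36.5 to 44.1 in Tau-, again with no overlap, at -0.30 ± 0.0611 (adjusted p = 0.149). With the split as a block both Hmgcs1 (adjusted p = 0.0345) and Cyp51 (adjusted p = 0.0356) fell.

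Sqle, squalene epoxidase, read 11.6 ± 1.66 CPM in Tau+ and 15.2 ± 1.64 in Tau- (SD, n = 8, adjusted p = 0.197). Srebf2, which encodes SREBP2, had a log2 value of -0.24 ± 0.0923 (adjusted p = 0.43). Tm7sf2, a sterol reductase, was the member above 0, at 0.07 ± 0.111.

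Summed over the 23 genes, Tau+ libraries read 284 to 410 CPM with a median of 328, and Tau- libraries 378 to 455 with a median of 418. The ranges overlapped. All 23 had a log2 value below 0 in Ch25h+/+ (median -0.28), where 50.7% of all genes did, with 9 lower at an unadjusted p under 0.05 (2.19% of all genes). In Ch25h-/- 21 were below 0 (median -0.37, all genes 51.7%), with 11 lower at an unadjusted p under 0.05 (4.54% of all genes). The median was -0.42 on the first side of the library split and -0.23 on the second, with 22 of 23 below 0 on each, and -0.27 without replicates 3 and 4 of Ch25h-/- Tau-. In barcodes under 100 UMIs Hmgcs1 read 43.4 CPM and Cyp51 66.7, above their levels in CA1 nuclei, and the part of free RNA was not tested.

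The same genes were read in the other principal neurons, of which 2694 were CA3 nuclei and 6933 DG nuclei. CA3 nuclei had 20 of 23 below 0 with a median of -0.16, and none was lower at an unadjusted p under 0.05 (3.48% of all genes). DG nuclei had 14 of 21 below 0 with a median of -0.04, and none was lower at it either (4.27% of all genes). Those classes had fewer nuclei, so their values are less precise. The tau effect in CA1 minus that in CA3 nuclei had a median of -0.12 over the 23 genes with 20 below 0 (49.1% of all genes) and 4 lower at an unadjusted p under 0.05 (2.86% of all genes, smallest adjusted p = 0.604). Minus that in DG nuclei the median was -0.25, with 21 of 23 below 0 (48.3% of all genes) and 7 lower at an unadjusted p under 0.05 (3.43% of all genes, smallest adjusted p = 0.462). No single gene of the list was shown to differ between CA1 and either class. Hmgcs1, for example, read 8.23 ± 2.5 and 8.06 ± 2.14 CPM in Tau+ and Tau- DG nuclei, and its CA1 minus DG value was -0.59 ± 0.219 (adjusted p = 0.544).

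**Figure D3:**
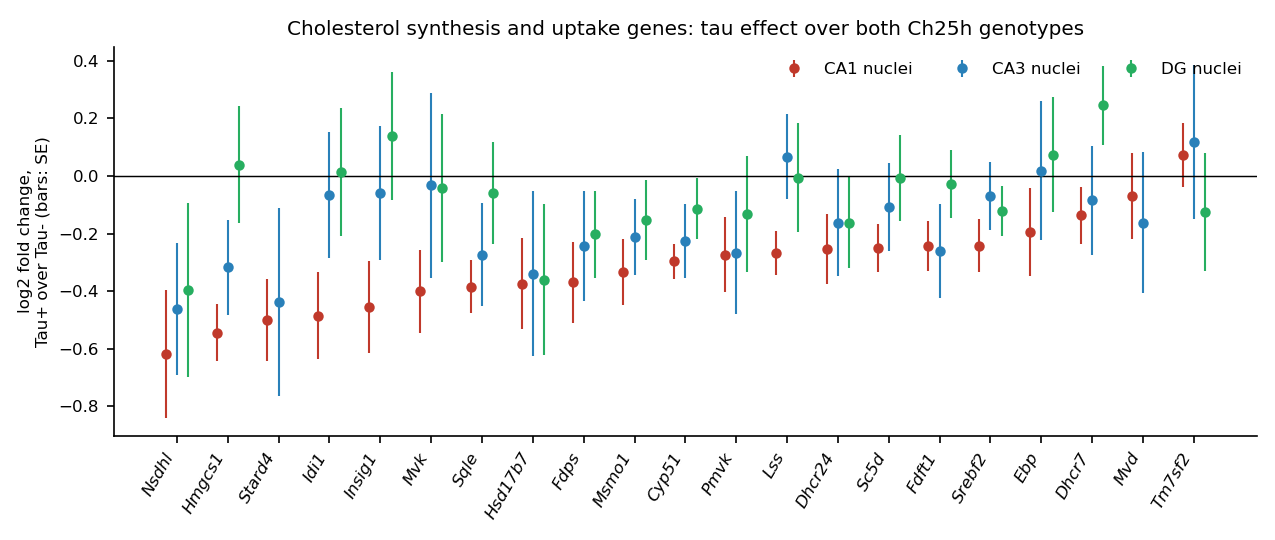
Tau effect over both Ch25h genotypes for 21 of the 23 cholesterol genes (x axis, ordered by the CA1 value) as log2 fold change of Tau+ over Tau- (y axis). Points are estimates in CA1, CA3 and DG nuclei and bars are 1 SE. In CA1 nuclei 20 of 21 points lie below 0, in CA3 nuclei 18 of 21 and in DG nuclei 14 of 19.

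The promoters of these genes were searched for a sterol regulatory element, the site that SREBP2 binds, because the members read lower together. The letters TCACNCCAC were looked for on both strands in the 250 bases before each RefSeq start site (GRCm38.p6). Of 16 cholesterol genes with a promoter in the table, 1 held them, Hmgcs1 (6.25%), against 146 of 11819 genes tested in CA1 (1.24%) and 331 of 27025 promoters in all (1.22%). The match is a description of the letters and not a shown binding site. The RefSeq sequence around it is shown because Hmgcs1 had the lowest p of the list. It covers chr13:119690154-119690282 on the plus strand, with the match in capitals, 137 bases before the start site.
Hmgcs1: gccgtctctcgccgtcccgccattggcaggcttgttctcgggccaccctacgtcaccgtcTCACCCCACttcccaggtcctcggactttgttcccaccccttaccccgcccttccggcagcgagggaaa

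Genes of the interferon response and antigen presentation gave no call for tau without the block (smallest adjusted p = 0.183, for B2m). Of 22 listed, 15 passed the filter on low counts, and 7, among them Ifit3 and Irf7, had too few UMIs to test. A gene that passed the filter through the group where it is high had to differ, so no count over the 15 is given. Summed over all 22, the level was 91.4 to 271 CPM in Tau+ (median 110.0) and 84.6 to 101 in Tau- (median 91.0), and the ranges overlapped.

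The highest values were in a few Tau+ libraries. Oasl2, an interferon-induced gene, read 25.9 CPM in Ch25h+/+ Tau+ replicate 1, 2.25 in replicate 2, and 0 and 0.0923 in the others. In Ch25h-/- Tau+ it read 3.14, 6.87, 0.0916 and 1.04, and in the 8 Tau- libraries at most 0.229. The summed level of the 22 genes was 271 CPM in Ch25h+/+ Tau+ replicate 1, against 99.2, 104 and 116 in the other 3. B2m, the light chain of MHC class I, was more even, at 3.05 to 6.15 CPM in Tau+ and 1.63 to 3.58 in Tau- (0.71 ± 0.166, adjusted p = 0.183). H2-D1, a heavy chain, passed with the split as a block (0.63 ± 0.111, adjusted p = 0.0345) and read 2.88 to 9.67 CPM in Tau+ and 2.15 to 4.73 in Tau-.

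Glial markers were read in the same nuclei, where 49.9% of all genes had a log2 value above 0 for tau and 4.13% were higher at an unadjusted p under 0.05. All 7 oligodendrocyte markers were above 0 (median 0.62, 4 higher at an unadjusted p under 0.05), and their sum was 115 to 155 CPM in Tau+ and 85.3 to 144 in Tau-. Of 8 microglia markers 7 were above 0 (median 0.28, 3 higher at an unadjusted p under 0.05), with sums of 94.8 to 134 and 82.8 to 114 CPM. P2ry12, found in a larger share of CA1 nuclei than of all other nuclei, makes up much of that sum. Of 7 astrocyte markers 3 were above 0, with sums of 23.5 to 46.7 and 27.5 to 46.2 CPM. No marker of these lists was at 0. Ctss, a lysosomal protease of microglia, read 3.17 ± 1.14 and 1.47 ± 0.381 CPM (log2 1.10 ± 0.207, adjusted p = 0.0749). C4b, a complement gene, read 2.20 ± 1.42 and 0.532 ± 0.113 CPM, and Trf, transferrin, 16.5 ± 3.02 and 10.8 ± 3.04 CPM. Ctss and Trf rose with the split as a block (adjusted p = 0.0356 and 0.0345). C4b passed the filter on low counts only through Tau+, where it is high, so no test of it is given. In barcodes under 100 UMIs Ctss, C4b and Trf read 64.4, 47.3 and 361 CPM. The part of glial RNA in these and in the interferon values was not tested.

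**Figure D4:**
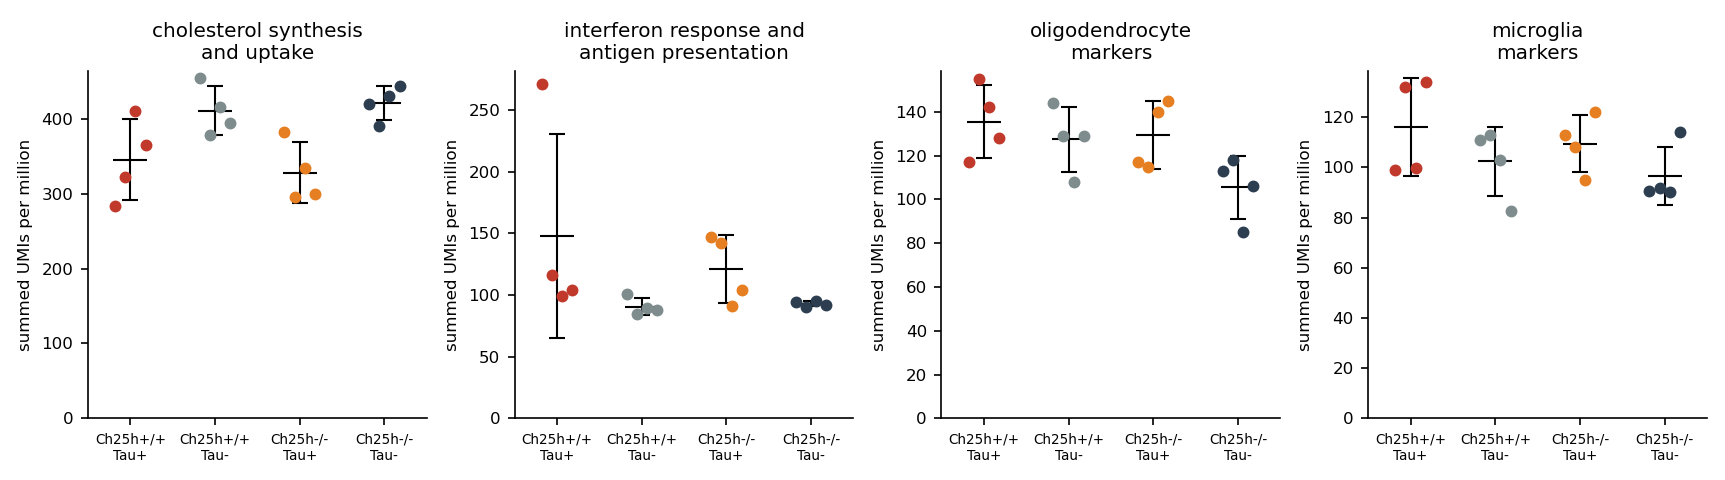
Summed CPM (y axes) of 4 gene lists in CA1 nuclei of each library, by group (x axes). Points are libraries and bars are the group mean ± SD (n = 4). The cholesterol sum is 284 to 410 in Tau+ and 378 to 455 in Tau-, and the interferon sum of Ch25h+/+ Tau+ replicate 1, 271, stands above the rest.

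Of the synaptic and channel genes no list member passed for tau without the block. For tau 49.9% of all genes were above 0 and 50.1% below, and at an unadjusted p under 0.05 4.13% were higher and 5.05% lower. Among 24 glutamate receptor genes 11 were above and 13 below 0, with a median of -0.03 and a range of -0.23 to 0.23. Grin1, the obligatory NMDA receptor subunit, read 477 ± 36.5 CPM in Tau+ and 416 ± 32.6 in Tau- (0.20 ± 0.0535, adjusted p = 0.264). Grik2, a kainate receptor subunit, read 951 ± 36.9 and 1070 ± 77.4 (-0.16 ± 0.0454, adjusted p = 0.266). Gria1, the main AMPA receptor subunit of CA1, read 2760 ± 268 and 2700 ± 279 CPM. Among 15 auxiliary subunits of these receptors the median was 0.01, and Neto1, which binds NMDA and kainate receptors, read 228 ± 18.8 and 282 ± 36.6 CPM (-0.31 ± 0.0741, adjusted p = 0.2).

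Scaffold and adhesion genes of the postsynapse were 10 above and 13 below 0 (median -0.02), with Homer3 at 14.2 ± 2.68 and 10.0 ± 2.03 CPM (0.50 ± 0.135, adjusted p = 0.264). Calmodulin and kinase genes were 11 and 11 (median -0.00115). Camk2a, the kinase of synaptic plasticity, read 1190 ± 116 and 1140 ± 144 CPM. Of 15 GABA receptor genes 9 were below 0 (50.1% of all genes) and 5 were lower at an unadjusted p under 0.05 (5.05% of all genes), with a median of -0.05 and Gabra3 at 54.1 ± 3.65 and 65.7 ± 8.87 CPM (adjusted p = 0.264). Potassium and HCN channel genes had a median of -0.03 over 32, and sodium and calcium channel genes one of 0.04 over 23, where Cacna1a, the P/Q-type calcium channel, read 748 ± 74.3 and 651 ± 43.4 CPM (0.20 ± 0.0544, adjusted p = 0.264).

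Genes of vesicle release were mostly below 0, 24 of 29 (50.1% of all genes), by a small amount (median -0.07), with 2 higher and 3 lower at an unadjusted p under 0.05 (4.13 and 5.05% of all genes). Snap25 had the lowest p of the list, and Syt1, the calcium sensor of release, read 3110 ± 191 and 3290 ± 154 CPM (-0.08 ± 0.0427, adjusted p = 0.59). Of 23 microtubule-associated proteins and tau kinases 18 were below 0 (median -0.08), with 1 higher and 5 lower at an unadjusted p under 0.05. Map2, the dendritic microtubule protein, read 542 ± 50.6 and 628 ± 55.0 CPM (-0.21 ± 0.0627, adjusted p = 0.281), and Ttbk2, a tau tubulin kinase, 8.61 ± 0.774 and 11.2 ± 1.55 (-0.37 ± 0.0892, adjusted p = 0.197). Of 18 heat-shock chaperones tested 16 were below 0 (median -0.14), where 50.1% of all genes were, and 4 were lower at an unadjusted p under 0.05 (5.05% of all genes), with Hspa8 at 32.4 ± 7.76 and 44.5 ± 10.1 CPM (-0.48 ± 0.135, adjusted p = 0.271). By genotype 12 of the 18 were below 0 in Ch25h+/+ (median -0.09, none lower at an unadjusted p under 0.05) and 16 in Ch25h-/- (median -0.28, 5 lower, where 4.54% of all genes were). Summed over all 21 listed chaperones the group medians were 842 CPM in Ch25h+/+ Tau+, 820 in Ch25h+/+ Tau-, 678 in Ch25h-/- Tau+ and 848 in Ch25h-/- Tau-. The lowest median was thus that of Ch25h-/- Tau+, but its range of 621 to 808 CPM overlapped that of every other group. No member passed for the interaction (smallest adjusted p = 0.989). Hsp90aa1, an HSP90 chaperone, fell with the split as a block (-0.42 ± 0.0798, adjusted p = 0.0356). Dnaja2 of the library split belongs to this list.

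Immediate early genes, which neurons switch on with activity, gave no call for tau. Over both genotypes 15 of 20 were below 0 (50.1% of all genes) with a median of -0.23, and the smallest adjusted p was 0.398. The median was -0.01 in Ch25h+/+ and -0.50 in Ch25h-/-, with 5 lower at an unadjusted p under 0.05 in Ch25h-/- (4.54% of all genes). The interaction had 4 members lower at an unadjusted p under 0.05 (2.52% of all genes, smallest adjusted p = 0.989). Without Ch25h-/- Tau- replicate 1 the median over both genotypes was -0.01 with 10 of 20 below 0, and without Ch25h+/+ Tau- replicate 1 it was -0.05 with 11 below 0, and without Ch25h-/- Tau+ replicate 3 it was -0.11 with 13 below 0, so its size rested on single libraries. It was -0.38 on the first side of the library split and 0.05 on the second. Homer1, whose short form is induced by activity, read 525, 217, 276 and 270 CPM in Ch25h+/+ Tau- and 434, 376, 188 and 236 in Ch25h-/- Tau-. In Tau+ Homer1 read 217, 325, 232 and 302 CPM in Ch25h+/+ and 305, 207, 170 and 177 in Ch25h-/-, and the ranges overlapped in both genotypes. Arc, a regulator of synaptic AMPA receptors, read 26.9 ± 7.18 CPM in Tau+ and 26.3 ± 8.84 in Tau- (SD, n = 8).

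None of the 10 CA1-enriched genes outside the rule passed for tau. Their median was -0.04 and the smallest adjusted p was 0.458, for Dcn, which read 20.9 ± 6.34 CPM in Tau+ and 30.7 ± 11.2 in Tau-. Man1a read 446 ± 34.7 and 450 ± 88.6 CPM, Mpped1 145 ± 12.5 and 149 ± 14.9, and Wfs1 23.4 ± 3.01 and 21.2 ± 7.02.

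Across the principal neurons the tau effect in CA1 was compared gene by gene with that of the same libraries' other nuclei. Against CA3 nuclei edgeR called 0 of 15369 genes, with 902 at an unadjusted p under 0.05 (5.87%). It called 239 with no filter on low counts, 238 of them among the genes that pass the filter, and 40 and 6 on the first and second sides of the library split, so the count of 0 rests on these choices. Against DG nuclei it called 3 of 16191 (0.0185%), with 1186 at an unadjusted p under 0.05 (7.33%). Ryr3, an intracellular calcium release channel, read 1190 ± 79.9 and 1110 ± 137 CPM in Tau+ and Tau- CA1 nuclei, and 360 ± 37.8 and 424 ± 33.7 in DG nuclei, a difference of the log2 values of 0.35 ± 0.0634. Nckap5 read 114 ± 11.9 and 116 ± 11.4 in CA1 nuclei and 113 ± 16.7 and 161 ± 27.3 in DG nuclei, a difference of 0.49 ± 0.0842. Blnk, a B-cell adaptor gene, read 3.64 ± 1.42 and 4.29 ± 0.941 in CA1 nuclei and 11.9 ± 3.41 and 5.88 ± 2.63 in DG nuclei, a difference of -1.31 ± 0.241. Ryr3, Nckap5 and Blnk each had an adjusted p of 0.0396 (SD, n = 8). Leaving out 1 library ended these calls in 11, 10 and 12 of 16 cases, and on neither side of the library split alone did Ryr3, Nckap5 or Blnk pass (adjusted p = 0.0678 to 0.218).

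Of the genes called for tau in CA1 nuclei, Prnp, Gm43049 and Unc5c had the same direction in the other classes. UMIs assigned to Prnp, of the mouse gene or of a transgene, rose by 0.82 ± 0.101 in CA3 nuclei (adjusted p = 0.000352) and by 0.65 ± 0.0841 in DG nuclei (adjusted p = 0.000691). Its CA1 minus DG value was 0.05 ± 0.0581 (adjusted p = 0.907). Gm43049 read 95.5 ± 14.1 against 0.209 ± 0.441 CPM in CA3 nuclei and 58.6 ± 9.01 against 0.023 ± 0.0651 in DG nuclei. Unc5c was at -0.33 ± 0.101 in CA3 nuclei (adjusted p = 0.626) and -0.35 ± 0.0722 in DG nuclei (adjusted p = 0.091), and the CA1 values minus these were -0.30 ± 0.0855 and -0.30 ± 0.0774, which did not pass (adjusted p = 0.604 and 0.273).

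For loss of Ch25h, read as libraries labelled Ch25h-/- minus Ch25h+/+, 5 genes differed over both tau states (0.0307%). Of these 3 were higher (0.0184%) and 2 lower (0.0123%). At an unadjusted p under 0.05 there were 408 genes (2.5%), 212 higher (1.3%) and 196 lower (1.2%). In Tau+ alone 2 genes passed (0.0123%), Gm35867 higher and Pyroxd2 lower (0.00614% each), and in Tau- alone 3 (0.0184%), Pyroxd2, Ermn and Csrp1, all lower, with 585 at an unadjusted p under 0.05 (3.59%). Of the 5, 4 lie on chromosome 19, which also carries Ch25h: Pyroxd2 (42725858-42752775), its neighbour Hps1 (42755105-42779978), Gm35867 (45058841-45110342) and Arl3 (46531096-46573198). The other was Ermn (2:58045113-58052864). Effects of Ch25h loss and of any other DNA that differs between the labelled groups cannot be told apart either.

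Pyroxd2, which encodes a mitochondrial oxidoreductase, read 5.49, 5.37, 4.57 and 4.52 CPM in Ch25h+/+ Tau+ and 4.96, 2.90, 5.51 and 2.04 in Ch25h+/+ Tau-. With Ch25h-/- labels Pyroxd2 read 0.279, 0.859, 1.01 and 0.346 in Tau+ and 0.523, 0.381, 0.801 and 0.326 in Tau-. The groups did not overlap, and the UMIs numbered 371 and 49. Pyroxd2 passed the filter on low counts only through the libraries labelled Ch25h+/+, where it is high, so its calls below were favoured in advance. Pyroxd2 fell by 2.94 ± 0.271 on the log2 scale (adjusted p = 6.13e-05), and it passed in Tau+ (adjusted p = 0.00445) and in Tau- (adjusted p = 0.019) alone. Leaving out 1 library at a time, Pyroxd2 passed in all 16 fits over both tau states and in Tau+, and the Tau- call was lost in 5 (adjusted p up to 0.0793). On either side of the library split alone neither single-state call held (adjusted p = 0.16 and 0.434 in Tau+, 0.213 and 0.178 in Tau-). Over both tau states Pyroxd2 passed on the first side (adjusted p = 0.00695) and was at -2.67 on the second (adjusted p = 0.16).

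Hps1, a subunit of a complex for lysosome-related organelles, read 17.7 to 24.5 CPM in Ch25h+/+ and 27.4 to 35.3 in the libraries labelled Ch25h-/-, with no overlap (0.55 ± 0.08, adjusted p = 0.0188). Groups this size did not overlap for 3 of all 16295 genes (0.0184%). Arl3, a small GTPase of cilia, read 61.6 ± 8.89 and 83.4 ± 4.2 CPM (SD, n = 8), where Ch25h+/+ Tau- replicate 4 at 81.9 lay within the other range (0.44 ± 0.0738, adjusted p = 0.0495). Gm35867, a noncoding RNA, had 83 and 249 UMIs, or 0.952 ± 0.818 and 2.85 ± 0.679 CPM (1.76 ± 0.287, adjusted p = 0.0495).

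Ermn, a myelin-associated gene of oligodendrocytes, read 2.44 ± 0.255 CPM in Ch25h+/+ and 1.17 ± 0.831 in the libraries labelled Ch25h-/- (-1.30 ± 0.216, adjusted p = 0.0495). In Tau- alone it fell from 2.45 ± 0.242 to 0.563 ± 0.251 CPM (SD, n = 4, adjusted p = 0.0427), and Csrp1, a cytoskeletal LIM protein gene, fell from 3.82 ± 0.319 to 1.52 ± 0.462 (adjusted p = 0.0471). Over both tau states 6 of 7 oligodendrocyte markers were below 0, where 50% of all genes were, with 3 lower at an unadjusted p under 0.05, where 1.2% of all genes were (sums 108 to 155 and 85.3 to 145 CPM). All 7 astrocyte and all 8 microglia markers were below 0 too. Without high doublet scores Ermn had no test result, either over both tau states or in Tau- alone, so its call could not be checked there. The part of glial RNA in Ermn and Csrp1 was not tested. The Csrp1 call was lost in 15 of 16 fits that left out 1 library (adjusted p up to 0.278), with no filter on low counts (adjusted p = 0.0576) and without high doublet scores, where its log2 value was -0.91 (adjusted p = 1.0) in place of -1.30.

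The calls for Ch25h loss other than Pyroxd2 lay near the threshold. Leaving out 1 library at a time ended the call over both tau states in 5 of 16 fits for Hps1 (adjusted p up to 0.0809), 13 for Gm35867 (up to 0.148), 14 for Ermn (up to 0.159) and 15 for Arl3 (up to 0.157). It ended those of Gm35867 in Tau+ in 11 (up to 0.206) and of Ermn in Tau- in 14 (up to 0.204). The log2 values kept their sign in all of these fits, between 0.52 and 0.61 for Hps1, 1.59 and 1.99 for Gm35867, -1.44 and -1.20 for Ermn, and 0.41 and 0.51 for Arl3.

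Without replicates 3 and 4 of Ch25h-/- Tau-, the 2 libraries rich in Dcn, Pyroxd2 was the 1 gene called over both tau states, with 1 in Tau+ and 0 in Tau-. The log2 values over both tau states were then -3.0 for Pyroxd2, 0.53 for Hps1, 1.80 for Gm35867, 0.45 for Arl3 and -1.37 for Ermn, close to those with all libraries, and the last 4 had an adjusted p of 0.139. In Tau- Pyroxd2 was at -3.01 (adjusted p = 0.404), Ermn at -2.25 (adjusted p = 0.407) and Csrp1 at -1.03 (adjusted p = 0.99). None of the 5 genes was among the 3 called on the second side of the library split.

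The gene lists gave no call for Ch25h loss. The cholesterol genes were 13 above and 10 below 0, where 50% of all genes lay on each side, with a median of 0.03 over both tau states. In Tau+ 11 were above and 12 below 0 (median -0.00543), where 50.2% and 49.8% of all genes were, and in Tau- the median was 0.04. The sum of the 22 interferon genes in Ch25h+/+ Tau+ was 271 CPM in replicate 1 and 99.2 to 116 in the others (median 110.0), and in Ch25h-/- Tau+ 91.4 to 147 (median 123). Of 18 heat-shock chaperones 16 were below 0 (median -0.13, all genes 50%) and 4 were lower at an unadjusted p under 0.05 (1.2% of all genes), and Cryab, a small heat-shock protein, had the smallest adjusted p at 0.0893. In Tau+ 17 were below 0 (median -0.24) and 7 lower at an unadjusted p under 0.05 (1.71% of all genes lower, 1.21% higher), and in Tau- 10 were below 0 (48.5% of all genes, median -0.02) and 1 lower (1.59% of all genes). The Ch25h-/- Tau+ libraries, whose chaperone sum had the lowest median, enter both this comparison and the one for tau.

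The interaction of tau and Ch25h, that is the tau effect in Ch25h-/- minus that in Ch25h+/+, gave 0 calls in edgeR and 0 in DESeq2, with 709 genes at an unadjusted p under 0.05 in edgeR (4.35%). Within Ch25h-/- the fourth gene called for tau was Unc5c, the lower one (0.00614%). At an unadjusted p under 0.05 there were 782 genes for tau in Ch25h+/+ (4.8%, with 2.61% higher) and 1412 in Ch25h-/- (8.67%, with 4.12% higher). Slit2, an axon guidance ligand, read 228, 193, 301 and 326 CPM in Ch25h-/- Tau- and 138 to 169 in Ch25h-/- Tau+, with no overlap (4.74% of all genes for this pair of groups), and 138 to 192 in the other 12 libraries. The values 301 and 326 are those of replicates 3 and 4, the libraries rich in Dcn. For tau in Ch25h-/- Slit2 was at -0.74 ± 0.132 (adjusted p = 0.0553) with them and -0.43 ± 0.109 (adjusted p = 0.513) without them. It did not pass over both genotypes (-0.42 ± 0.0933, adjusted p = 0.172).

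CA1 nuclei were also described along known axes of the field, where Wfs1 marks dorsal and Dcn ventral CA1, and Calb1 the superficial layer. A Wfs1 UMI was found in 2816 members, a Calb1 UMI in 3447 (22.9%) and a Dcn UMI in 1833 (12.2%). In DG nuclei, at median depths of 6417 to 9010.5 UMIs, a Wfs1 UMI was found in a mean of 3.50% and a Dcn UMI in 2.16%, and in CA3 nuclei, at 9270 to 13042.5 UMIs, a Calb1 UMI in 9.84%. Wfs1 and Dcn occurred together in 167 nuclei, where independent detection within each library gives 329. Dcn and Calb1 occurred together in 621, where independence gives 435.7, and Wfs1 and Calb1 in 664, where it gives 635.8. Per library the median depth was 9660 to 15300 UMIs in nuclei with a Dcn UMI and 8854 to 12720 in those without, and 10240 to 14410 and 8626 to 12490 for Calb1. For Wfs1 it was 8680 to 13250 UMIs in nuclei with a UMI and 8966 to 12970 in those without.

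The genes that ran with each marker were ranked by the median over libraries of the log2 ratio between nuclei with and without it. These are descriptions of the same nuclei. Nuclei with a Wfs1 UMI had more Egfl6, a secreted matrix protein (1.34), Plekhg1 (1.13) and Itpr2, an inositol trisphosphate receptor (1.07), and less Cpne4 (-2.15), Tspan18 (-2.14) and Dchs2, a protocadherin (-1.96). Nuclei with a Dcn UMI had more Adra1a, an adrenergic receptor (2.26), Rgs6 (2.0), Col6a1 (1.96) and Pcdh15 (1.95), and less Egfl6 (-2.51), Col11a1, a collagen (-2.53), and Robo3 (-2.13). Nuclei with a Calb1 UMI had more Bmpr1b (1.70), Ndrg1 (1.33), Csgalnact1 (1.24) and Kitl, the Kit ligand (1.14), and less Fn1, fibronectin (-2.92), Cpne4 (-1.84), Slc17a6, the other vesicular glutamate transporter (-1.75), and Tshz2 (-1.70). The rule's own genes 4921539H07Rik and 1700007F19Rik were higher with a Wfs1 UMI (1.34 and 1.30) and lower with a Dcn UMI (-2.70 and -2.56). Nuclei with a Dcn UMI thus carried less of these genes that the rule counts. Each of the genes named here had the same sign in 16 of 16 libraries.

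Bmpr1b, lower in Tau+ with the library split as a block, is thus also the first-ranked gene among those higher in nuclei with a Calb1 UMI. Calb1 itself read 32.7 ± 5.32 CPM in Tau+ and 39.2 ± 9.55 in Tau- (SD, n = 8, adjusted p = 0.611). The part of this axis in the Bmpr1b value was not tested.

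Among 9718 genes with at least 0.1 UMI per nucleus, those with the most variance between nuclei beyond sampling were Nxph1 (excess squared coefficient of variation 96.4), Kcnmb2 (64.8), Npsr1 (63.1), Cpa6 (57.7), Reln (49.5), Gpc3 (40.2) and Erbb4 (38.8), against a median of 0.239 over these genes. Nxph1, Kcnmb2, Reln and Erbb4 are known for inhibitory neurons, of which the rule allows 1 Gad1 or Gad2 UMI. The summed inhibitory markers were 33.8 to 65.4 CPM per library. Fn1 and Tshz2, low with Calb1, are known for the subiculum or neighbouring cortex, and the 6 retrohippocampal markers summed to 215 to 498 CPM. Cpne4, also low with Calb1, is listed as a marker of CA3 and averaged 547.9 CPM in CA3 nuclei, 278.5 in DG nuclei and 190.7 in CA1 nuclei. The 6 CA3 markers outside the rule summed to 364 to 596 CPM.

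The share of CA1 nuclei did not differ between groups beyond the spread of libraries. It was 9.93 ± 1.01% of nuclei in Ch25h+/+ Tau+ (SD, n = 4) and 10.6 ± 2.12% in Ch25h+/+ Tau-. The Ch25h-/- shares were 10.5 ± 0.485% in Tau+ and 9.69 ± 2.87% in Tau-. Over both genotypes Tau+ minus Tau- was 0.0758 percentage points (two-sided exact permutation p = 0.935). Its direction turned with the libraries used, at -1.52 points on the first side of the library split, 1.67 on the second and -1.1 without the 2 Dcn-rich libraries, and it ran from -0.428 to 0.653 without 1 library. For Ch25h loss over both tau states it was -0.159 points (two-sided exact permutation p = 0.884). The rule counts 4921539H07Rik and 1700007F19Rik, which ran low in nuclei with a Dcn UMI. Whether the share misses part of such nuclei was not tested. All 6 effects had an adjusted exact permutation p of 0.935. The smallest p that 4900 arrangements can give is 0.000408, and that of 70 is 0.0286.

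**Figure D5:**
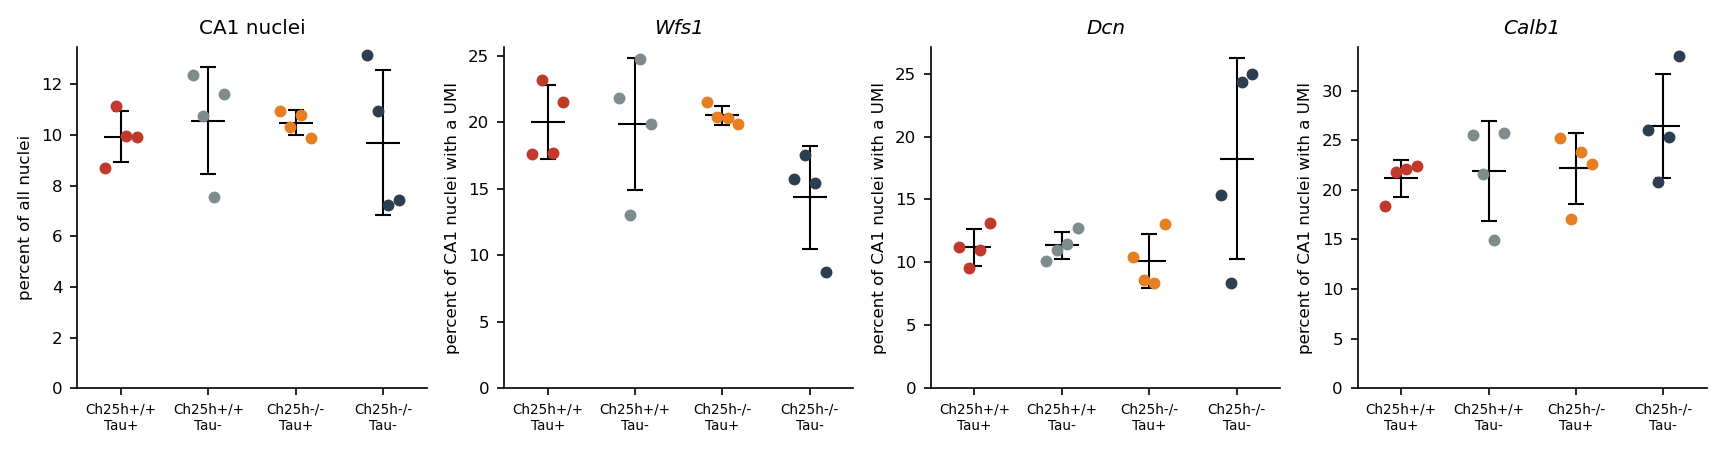
CA1 nuclei as percent of all nuclei, and percent of CA1 nuclei with a Wfs1, Dcn or Calb1 UMI (y axes), in each library by group (x axes). Points are libraries and bars are the group mean ± SD (n = 4). Ch25h-/- Tau- replicates 3 and 4 have the highest Dcn values, 24.3 and 25%, and the lowest CA1 shares, 7.25 and 7.42%.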

How the data were processed

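The authors deposited a matrix of UMI counts per gene and barcode for each of the 16 libraries, holding all barcodes, with no normalization. The submitters' processing notes name Cell Ranger 3.1.0 and mm10, while version 4 of that software stands in the matrices themselves, per the file headers. Per the labels' protocols the kit was Chromium Single Cell 3' v3.1. Coordinates are from GENCODE M21 (GRCm38), and promoters from RefSeq (GRCm38.p6).

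Nuclei had at least 500 UMIs, at least 300 genes and at most 5% mitochondrial UMIs. Doublets were scored but kept, and were left out in an alternative. CA1 counts were summed per library and tested with edgeR 4.0.16 (R 4.3.3) by its quasi-likelihood test, with TMM scaling, filterByExpr and 1 mean per group. P-values of edgeR were adjusted by Benjamini-Hochberg over all genes tested in a fit. In the main fits these were 16295 in CA1 nuclei, 12356 in CA3 nuclei and 13266 in DG nuclei. For CA1 minus CA3 they were 15369, and for CA1 minus DG 16191. CPM values of single genes by library or group are TMM-scaled within their class of nuclei, also those of CA3 and DG nuclei in Tau+ and Tau-. Not TMM-scaled are marker averages by class, levels at the threshold of the rule, sums of lists, ratios with counting intervals and levels in barcodes under 100 UMIs. The 11 genes of the rule stayed in library sizes and out of tests. Differences between CA1 and other nuclei were fitted with the library as a block.

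The members, the 13 functional and 12 marker lists and the tests were chosen with earlier results of these data known. Named genes were up to 10 higher and 10 lower called genes per comparison with a mean of 10 or more UMIs per library in the higher group and separate ranges, the 3 members of each list with most UMIs and the 2 with the lowest p, and fixed genes. Genes outside this rule (Arl3 and Gm35867, those called with the library split as a block, Arc, Sqle, Tm7sf2 and Oasl2, and those that ran with Wfs1, Dcn or Calb1) were named after their values were seen, and some genes that the rule selects are not reported here. On simulated counts of 16110 genes, for tau over both genotypes, 94 of 100 genes changed by 1 on the log2 scale and 100 of 100 changed by 2 were recovered, with 9 false calls. The changed genes were drawn from those with more UMIs, no change under 1 was tried, and the library split was not simulated. How well smaller changes or genes with few UMIs are recovered was not tested. Counting intervals are at 95% and do not include animal variation.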

Additional observations from a re-analysis of the deposited data

Results flagged for a closer look

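In 89 group values of 4 libraries each, a library is listed here where its gap to the nearest of the others exceeded Dixon's 95% critical share of the group's range, which chance alone does in about 1 in 20 groups. In Ch25h+/+ Tau+ replicate 1, 18.4% of CA1 nuclei had a Calb1 UMI, against 21.8 to 22.4% in the other 3, and its interferon sum was 271 CPM against 99.2, 104 and 116. In Ch25h-/- Tau- replicate 4 the microglia markers summed to 114 CPM against 90.0 to 91.7, Prnp read 99.7 CPM against 82.0 to 84.9, and Gm35867 read 1.96 CPM against 2.52 to 2.57. The astrocyte markers of Ch25h+/+ Tau- replicate 1 summed to 28.8 CPM against 44.3 to 46.2. Arl3 read 81.9 CPM in Ch25h+/+ Tau- replicate 4 against 56.7 to 59.3. Where the other libraries of a group are all at 0, any UMI meets this rule, so the chance of 1 in 20 does not apply. Such were Gm32754 in Ch25h+/+ Tau- replicate 1, at 0.184 CPM from 2 UMIs, and Gm43049 in Ch25h-/- Tau- replicate 1, at 0.0747 CPM from 1 UMI.

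The tau effect differed between CA1 and DG nuclei by a test of the difference itself for Nckap5 (0.493), Ryr3 (0.353) and Blnk (-1.31), each at an adjusted p of 0.0396 in edgeR. These calls were lost when single libraries were left out in 10, 11 and 12 of 16 cases.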

How the results depend on the processing

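The alternatives without Ch25h-/- Tau- replicates 3 and 4 and without nuclei with a Dcn UMI were chosen after seeing the data. For tau over both genotypes 5 became 54 with DESeq2, 9 with no filter on low counts, 40 with the library split as a block, 14 on the first side of the split alone and 41 on the second. For tau in Ch25h+/+ 3 became 7 with DESeq2, 5 with the block and 10 on the second side. For tau in Ch25h-/- 4 became 58 with DESeq2, 12 with no filter, 14 with the block, 142 on the second side and 8 in members without a Dcn UMI. For Ch25h loss over both tau states 5 became 12 with DESeq2, 2 on the first side and 3 on the second, 2 without high doublet scores, 3 with 5 UMIs of the CA1 genes, and 1 without Ch25h-/- Tau- replicates 3 and 4. The 3 on the second side shared 0 with the 5, and Pyroxd2 had an adjusted p of 0.16 there. In Tau+ 2 became 0 on the first side, 3 on the second (0 shared with the 2), and 1 each without high doublet scores, with 5 UMIs and without those replicates. In Tau- 3 became 0 on the first side, 7 on the second (0 shared with the 3), 1 without high doublet scores, 1 with 5 UMIs and 0 without those replicates. CA1 minus CA3 gave 239 with no filter, 40 on the first side and 6 on the second, and CA1 minus DG 197, 7 and 37. The cause was not tested. Without 1 library at a time the counts were 5 to 8, 3 to 4, 4 to 13, 1 to 4, 1 to 3, 0 to 3, 0 to 1 (interaction), 0 to 1 (CA3) and 0 to 9 (DG), and the 5 tau genes stayed called in all 16 cases.

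Differences in the share of CA1 nuclei turned sign under several alternatives, often at a larger size than the reported value, and none passed an adjusted exact permutation p of 0.05. As a share of nuclei with a Slc17a7 UMI and at most 1 Gad1 or Gad2 UMI, tau gave 2.9 points over both genotypes and 6.85 in Ch25h-/-, while loss of Ch25h gave -5.22 in Tau- (adjusted exact permutation p = 0.489 each), against 0.0758, 0.794 and -0.877 of all nuclei. Thinned to 2000 UMIs per nucleus these were 0.266, 0.646 and -0.508 (adjusted exact permutation p = 0.771). Tau over both genotypes gave -0.0732 points at 1000 UMIs per nucleus, -1.52 on the first side and -1.1 without Ch25h-/- Tau- replicates 3 and 4, and -0.428 to 0.653 without 1 library. Tau in Ch25h+/+ gave 0.354 on the second side and -1.65 to -0.0429 without 1 library. Tau in Ch25h-/- gave -1.41 on the first side, -1.56 without those replicates and -0.02 to 1.95 without 1 library. Ch25h loss gave 0.606 on the first side, 1.02 without those replicates and -0.736 to 0.248 without 1 library. In Tau- it gave 0.491, 1.48 and -2.03 to -0.063, and in Tau+ 0.145 to 0.968 without 1 library. The median of immediate early genes was 0.0546 on the second side. No paired analysis was possible because the labels give no replicate numbers that match libraries across groups, and the blocks used were the library split and, between classes of nuclei, the library itself. Depth limits Ch25h itself, at 35 UMIs in all CA1 nuclei.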
